A study of Setaria viridis with 9 samples.

Results

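The genes described here belong to abscisic acid (ABA) signalling and the dehydration response of a grass leaf. They were chosen by words in the gene descriptions of the deposited table, among them abscisic, dehydrin, late embryogenesis, drought, dehydration-responsive, protein phosphatase 2C, SAPK and ripening protein. The words matched 111 of 17987 genes, and all 111 passed the filter on low counts that left 17970 genes to test. By role they comprised 6 genes of ABA synthesis and breakdown, 5 ABA receptors, 67 protein phosphatases 2C and 11 SAPK kinases. The remainder were 6 dehydration-responsive element-binding (DREB) factors, 5 ABSCISIC ACID-INSENSITIVE 5-like (ABI5-like) proteins, 2 dehydrins, 3 late embryogenesis abundant (LEA) proteins, 5 abscisic stress-ripening (ASR) proteins and 1 cold and drought-regulated protein. The word protein phosphatase 2C takes in the whole family, most of which has no known part in ABA signalling, so the phosphatases outnumber the genes with a known role in it.

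ABA is a hormone made from carotenoids when leaves lose water; 9-cis-epoxycarotenoid dioxygenase (NCED) makes its precursor in the step that usually limits the rate, and ABA 8'-hydroxylases break the hormone down. ABA bound by a PYL receptor blocks a subset of the protein phosphatases 2C. This frees the ABA-activated members of the SnRK2 kinases, called SAPK in rice. These members phosphorylate ABI5-type transcription factors and the anion channels whose opening closes stomata. DREB factors act beside this route through the dehydration-responsive element in promoters, and dehydrins, LEA proteins and ASR proteins are hydrophilic proteins that build up in drying tissue or seeds.

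The libraries were of polyadenylated RNA from leaf discs of Setaria viridis cv. ME034V-1, a small C4 grass, cut from the youngest fully expanded leaves of plants 3 to 4 weeks old. Per the labels, 3 libraries came from the wild type (WT), 3 from gene-edited plants with null alleles of NdhO, which belongs to the NADH dehydrogenase-like complex of the chloroplast, and 3 from gene-edited plants with null alleles of PGR5, a thylakoid protein of cyclic electron flow. The groups are written WT, ndhO and pgr5. All plants shared a chamber with 16 h of light at 380 µmol per m2 per s, 8 h of dark, 28 °C by day, 22 °C at night and 60% humidity; no drought and no ABA treatment is named in the labels. The sources used here do not say how many independent edited lines stand behind each label. The labels call the 3 libraries of a group biological replicates.

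The transcripts of the edited genes went against the labels. NdhO (LOC117858157) stood at 44.3, 617 and 230.0 CPM, read counts brought to a common library size, in WT 1, 2 and 3, at 245, 443 and 446 CPM in ndhO 1, 2 and 3, and at 421, 20.5 and 48.4 CPM in pgr5 1, 2 and 3. PGR5 (LOC117861247) reached 376, 46.5 and 42.8 CPM under the label WT, 38.1, 318 and 338 CPM under ndhO, and 287, 249.8 and 389 CPM under pgr5. NdhO was at 20.5 to 48.4 CPM in WT 1, pgr5 2 and pgr5 3 and at 230.0 to 617 CPM in all others. PGR5 was at 38.1 to 46.5 CPM in WT 2, WT 3 and ndhO 1 and at 249.8 to 389 CPM in all others. Both were high in ndhO 2, ndhO 3 and pgr5 1, so each label mixes libraries of different sets. A null allele can still be transcribed, so these levels alone do not give a genotype. Whether the labels match the plants was not tested. WT, ndhO and pgr5 therefore mean the libraries carrying that label, and higher or lower means between labels. Totals ran from 11606570 to 18837265 counts. Transcripts of leaf photosynthesis summed to between 113302 and 156607 CPM over 31 genes. No gene was described as an oleosin or caleosin, and 4 genes matched by words for seed storage proteins summed to between 36.9 and 47.5 CPM. A list of 10 genes matched by words for guard cells and stomata summed to between 129 and 151 CPM. It held stomatin-like protein 2 (LOC117862167), described as mitochondrial, at 13.1 to 22.5 CPM, because its name contains the letters searched for. In RNA from whole tissue, fewer cells of a type and less RNA per cell cannot be told apart.

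None of the 111 genes passed an adjusted p of 0.05 between any pair of labels in edgeR's quasi-likelihood test with Benjamini-Hochberg adjustment, where 0% of the 17970 genes tested passed in each of the 3 comparisons. DESeq2 passed 0 of the 111 as well, against 0.0892% of genes for ndhO against WT, 0.0335% for pgr5 against WT and 0.0669% for pgr5 against ndhO, and limma-voom passed 0 against 0%. At an unadjusted p under 0.05, edgeR held 5 of the 111 for ndhO against WT (4.5%, beside 2.74% of all genes), 1 for pgr5 against WT (0.901%, beside 2.06%) and 6 for pgr5 against ndhO (5.41%, beside 2.67%). The lowest adjusted p of any of them in edgeR was 1.00 in each comparison. The 3 comparisons share libraries, so their values are not independent. The median log2 fold change over the 111 genes was -0.03, -0.01 and -0.03 in the same order, and over all genes it was -0.00, 0.00 and 0.01. Of the 111, 52, 52 and 49 had a fitted value above 0. The common biological coefficient of variation was 0.383, which limits what 3 libraries against 3 can resolve, and a missed threshold does not show that a transcript was at the same level under both labels. This spread was estimated within labels that each mix libraries low and high in NdhO or PGR5. The comparisons therefore describe labels, and their lack of calls says nothing about the genotypes.

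Counting instead the genes whose 3 libraries under one label all lay above or all below the 3 under another, ndhO against WT had 17 of the 111 (15.3%, beside 8.63% of all genes), of which 12 were lower under ndhO (10.8%, beside 4.07%) and 5 were higher (4.5%, beside 4.56%). For pgr5 against WT there were 2 (1.8%, beside 6.32% of all genes), with 1 higher under pgr5 (0.901%, beside 3.38%) and 1 lower (0.901%, beside 2.94%). For pgr5 against ndhO there were 11 (9.91%, beside 8.25% of all genes), with 9 higher under pgr5 (8.11%, beside 4.15%) and 2 lower (1.8%, beside 4.1%). The 12 that were lower under ndhO than under WT were spread over the receptors PYL4-like and PYL9, the phosphatases 2C 54, 7, 53-like, 33 and 30, the kinases SAPK1, SAPK4-like and SAPK4, ABI5-like protein 5 and the LEA protein Lea5-D-like. The 5 that were higher were the phosphatase 2C 52, a DREB 1A-like gene, ABI5-like protein 3, an ASR 3-like gene and the CORA-like gene. These counts carry no test, and no member among them passed the adjusted threshold.

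**Figure D1:**
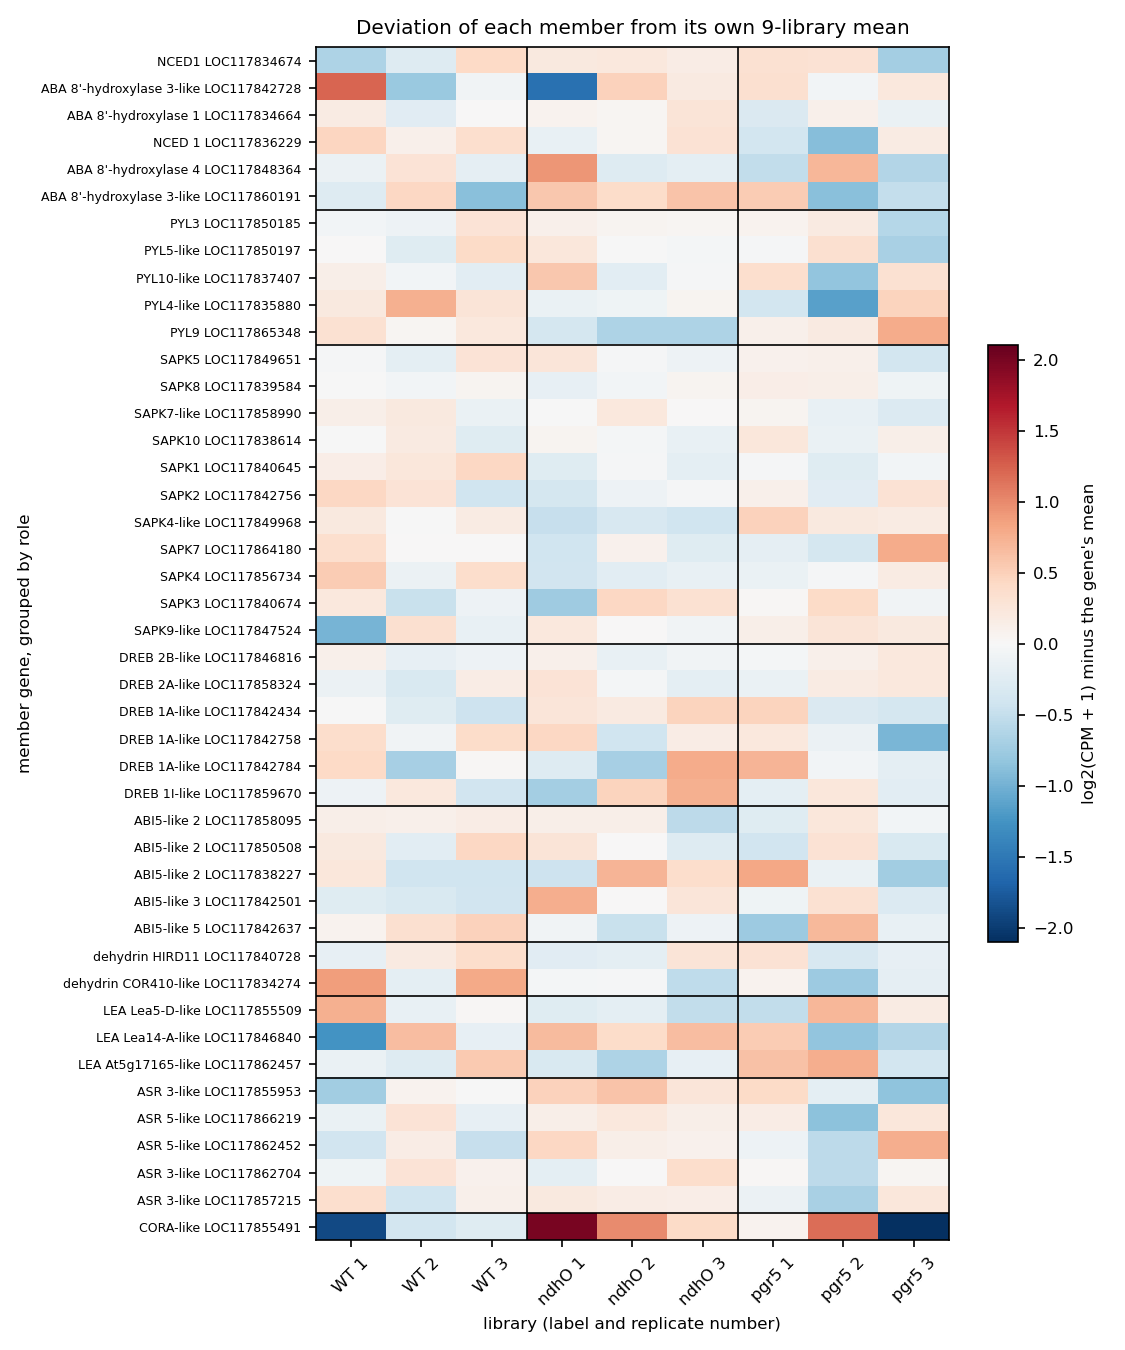
Each row is 1 of the 44 genes that are not phosphatases 2C and each column 1 library; colour gives log2(CPM + 1) minus the gene's mean over the 9 libraries, red above and blue below. The row of the CORA-like gene spans the most, from -2.09 in pgr5 3 to 2.00 in ndhO 1, and most rows change colour within a label.

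Transcripts for making ABA overlapped between all labels, and NCED1 spread widely within WT and within pgr5 but little within ndhO. NCED1 (LOC117834674), which makes the precursor of ABA, stood at 1124, 1462 and 2362 CPM in WT 1, 2 and 3, at 2032, 2042 and 1953 CPM under ndhO, and at 2194, 2173 and 1077 CPM under pgr5. Its lowest libraries were pgr5 3 and WT 1, its highest was WT 3, and the ndhO libraries lay inside the range of both other labels. A second gene described as 9-cis-epoxycarotenoid dioxygenase 1 (LOC117836229) stood at 4.09, 3.02 and 3.76 CPM under WT, 2.33, 2.86 and 3.61 CPM under ndhO, and 1.87, 1.02 and 3.21 CPM under pgr5. The labels overlapped for this gene too.

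The 4 ABA 8'-hydroxylases, which start the breakdown of the hormone, each ordered the libraries differently. The most uneven of them, 8'-hydroxylase 3-like (LOC117842728), stood at 26.2, 5.80 and 10.1 CPM under WT, 2.95, 15.3 and 12.4 CPM under ndhO, and 13.7, 10.3 and 12.7 CPM under pgr5. WT 1 was 8.90 times ndhO 1, while the other 7 libraries lay between 5.80 and 15.3 CPM. 8'-hydroxylase 1 (LOC117834664) kept to between 2.99 and 4.93 CPM in all 9 libraries. 8'-hydroxylase 4 (LOC117848364) ran from 0.526 CPM in pgr5 3 to 3.43 CPM in ndhO 1. The other 8'-hydroxylase 3-like gene (LOC117860191) had no counts in WT 3 and pgr5 2 and reached 1.77 CPM in ndhO 3.

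The receptor transcripts PYL3 (LOC117850185) and PYL5-like (LOC117850197) were the 2 best covered of the 5, and both were lowest in pgr5 3 and highest in WT 3. PYL3 stood at 86.6, 83.7 and 111 CPM under WT, 97.1, 94.6 and 92.7 CPM under ndhO, and 95.6, 103 and 59.6 CPM under pgr5. PYL5-like ran from 28.1 to 60.3 CPM. For both, each pair of labels overlapped. PYL10-like (LOC117837407) stood at between 4.58 and 8.64 CPM in 8 libraries and at 2.66 CPM in pgr5 2.

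The remaining receptors lay near the lower limit of the counts. PYL4-like (LOC117835880) stood at 3.31, 5.26 and 3.52 CPM under WT and at 2.40, 2.51 and 2.87 CPM under ndhO, without overlap, and at 1.87, 0.704 and 4.15 CPM under pgr5. PYL9 (LOC117865348) had 18, 8 and 10 counts in WT 1, 2 and 3, 3, 0 and 0 counts in ndhO 1, 2 and 3, and 13, 10 and 29 counts in pgr5 1, 2 and 3. The libraries labelled ndhO held 3 counts in all, below each library of the other labels. Per unit of library size the summed WT counts were 12.3 times those of ndhO (95% exact interval 3.88 to 62.4), and the summed pgr5 counts 16.1 times (5.23 to 80.8). These intervals were computed for PYL9 alone and treat the 3 libraries of a label as 1. They cover counting error only, and edgeR's adjusted p for PYL9 was 1.00 in both comparisons.

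Protein phosphatases 2C, the family that includes the targets of the receptors, varied little between libraries. Among the 54 of the 67 with a mean of at least 5 CPM, the highest library was a median of 1.68 times the lowest, beside 1.81 times over the 12186 genes above the same level. Phosphatase 2C 80 (LOC117837660), chosen after its values were seen, had the narrowest range of all the members above that level, 63.8 to 72.9 CPM. Of the 4 with most reads, phosphatase 2C 39 (LOC117863577) ran from 399.96 to 535 CPM and phosphatase 2C 5 (LOC117859238) from 136 CPM in pgr5 3 to 242 CPM in pgr5 1. BIPP2C1 (LOC117837762), named after a rice phosphatase, ran from 119 CPM in pgr5 3 to 181 CPM in WT 3. The fourth (LOC117846762) joins a phosphatase 2C to cyclic nucleotide-binding and kinase domains and ran from 122 to 179 CPM.

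Phosphatases 2C 50, 51 and 53 are among those that bear the names of rice phosphatases tied to ABA. The 53-like gene (LOC117850737) stood at 12.6, 12.7 and 13.9 CPM under WT, at 8.64, 10.4 and 9.06 CPM under ndhO, and at 11.2, 18.5 and 14.6 CPM under pgr5. The ndhO libraries lay below all 6 others. Against ndhO its log2 fold change under pgr5 was 0.65 (SE 0.22, 3 libraries each), with an unadjusted p of 0.0126 and an adjusted p of 1.00 in edgeR. The 51-like gene (LOC117848121) had the widest range among phosphatases above 5 CPM, 4.14-fold, from 2.47 CPM in WT 1 to 10.2 CPM in WT 3, so both ends lay under the same label. The 2 genes named 50-like, chosen after their values were seen, ran from 17.2 to 29.2 CPM (LOC117848581) and from no counts in pgr5 3 to 3.48 CPM in WT 2 (LOC117858467).

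Phosphatases 2C 54 and 9 had, with the 53-like gene, the lowest unadjusted p of the family for pgr5 against ndhO. Phosphatase 2C 54 (LOC117853023) stood at 35.3, 36.6 and 30.3 CPM under WT, 28.7, 26.6 and 29.98 CPM under ndhO, and 32.7, 39.6 and 44.4 CPM under pgr5, a log2 fold change of 0.45 (SE 0.16; unadjusted p of 0.0153 and adjusted p of 1.00 in edgeR) for pgr5 against ndhO. Phosphatase 2C 9 (LOC117857411) stood at 15.6, 15.8 and 19.3 CPM under WT, 15.8, 14.4 and 15.8 CPM under ndhO, and 19.4, 24.2 and 20.4 CPM under pgr5. It was the one member that lay higher in all 3 pgr5 libraries than in all 3 WT libraries, by a log2 fold change of 0.34 (SE 0.17; unadjusted p of 0.0744 and adjusted p of 1.00 in edgeR), and WT 3 and pgr5 1 differed little. Phosphatase 2C 32 (LOC117835159), the other phosphatase with a wide range, ran from 2.71 CPM in WT 2 to 7.07 CPM in ndhO 3. The 2 genes named phosphatase 2C 21 lie next to each other in RefSeq's order, and reads shared between such copies may have been split by the counting.

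The SAPK kinases are the SnRK2 family, whose ABA-activated members the phosphatases hold inactive. Of the 11 genes, 3 were lower in every ndhO library than in every WT library (27.3%, beside 4.07% of all genes). All SAPK kinases are known in rice to be activated by osmotic stress, and SAPK8, SAPK9 and SAPK10 also by ABA. SAPK1 (LOC117840645) stood at 33.2, 35.8 and 40.8 CPM under WT, 24.9, 29.5 and 25.9 CPM under ndhO, and 29.6, 25.1 and 28.9 CPM under pgr5. All 3 WT libraries lay above all 6 others, and SAPK1 was the one member of which this held for both edited labels. Its log2 fold change was -0.45 (SE 0.15) for ndhO and -0.39 (SE 0.15) for pgr5, each against the same WT libraries, with unadjusted p of 0.0126 and 0.0247 and adjusted p of 1.00 in edgeR.

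SAPK4-like (LOC117849968) and SAPK4 (LOC117856734) were both lowest under ndhO. SAPK4-like stood at 12.5, 10.7 and 12.2 CPM under WT, 7.34, 8.29 and 7.73 CPM under ndhO, and 15.3, 12.5 and 12.2 CPM under pgr5. The ndhO libraries were separated from the 6 others by a gap wider than their own spread, with means of 11.8 ± 0.995 CPM under WT, 7.79 ± 0.477 CPM under ndhO and 13.3 ± 1.71 CPM under pgr5 (SD, n = 3). For pgr5 against ndhO this gave the lowest p of any member in any comparison, a log2 fold change of 0.78 (SE 0.19) with an unadjusted p of 0.0020, an adjusted p of 1.00 in edgeR and of 0.256 in DESeq2. For ndhO against WT its log2 fold change was -0.60 (SE 0.19; unadjusted p of 0.00975, adjusted p of 1.00 in edgeR and 0.766 in DESeq2).

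SAPK4 stood at 12.7, 7.65 and 11.1 CPM under WT, 6.11, 7.06 and 7.44 CPM under ndhO, and 7.58, 8.22 and 9.64 CPM under pgr5, with a log2 fold change of -0.61 (SE 0.24; unadjusted p of 0.0305 and adjusted p of 1.00 in edgeR) for ndhO against WT. WT 2 lay next to the highest ndhO library, and the distance between the labels came from WT 1 and WT 3. The ABA-activated kinases showed no such order. SAPK8 (LOC117839584) kept to between 52.8 and 65.95 CPM, SAPK10 (LOC117838614) to between 30.9 and 43.5 CPM, and SAPK9-like (LOC117847524) to between 1.15 and 2.01 CPM in 8 libraries, with 0.210 CPM in WT 1. SAPK5 (LOC117849651) ran from 97.2 CPM in pgr5 3 to 154 CPM in WT 3, SAPK7-like (LOC117858990) from 32.01 to 46.1 CPM, and SAPK7 (LOC117864180) from 6.59 CPM in ndhO 1 to 16.4 CPM in pgr5 3. Over the 11 kinases the median log2 fold change was -0.05 for ndhO against WT, 0.04 for pgr5 against WT and 0.13 for pgr5 against ndhO. The fitted value was below 0 for 7 of the 11 for ndhO against WT and above 0 for 9 of the 11 for pgr5 against ndhO, and none of these passed the adjusted threshold.

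**Figure D2:**
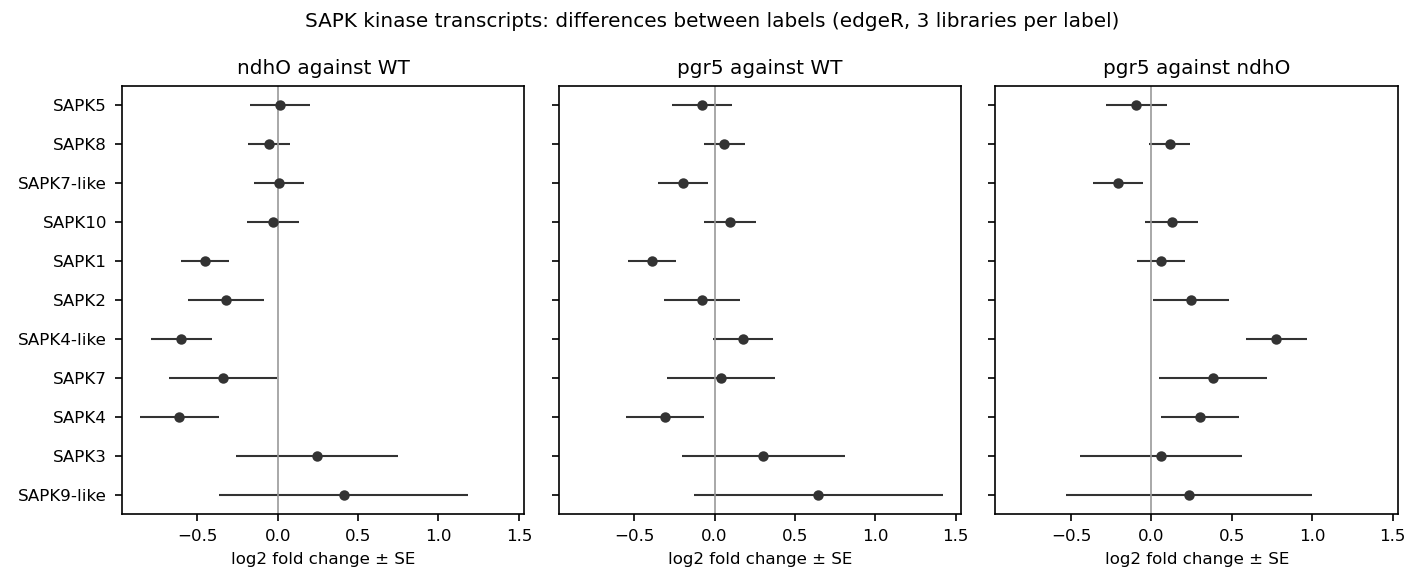
Points are the log2 fold changes of the 11 SAPK transcripts between labels from edgeR's fit, with bars of 1 SE and 3 libraries per label, ordered by mean CPM. For ndhO against WT, SAPK1, SAPK4-like and SAPK4 lie at -0.45, -0.60 and -0.61 while SAPK5, SAPK8, SAPK7-like and SAPK10 lie near 0; no point passes the adjusted threshold.

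Among the transcription factors, DREB 2B-like (LOC117846816) was even across libraries, from 72.5 CPM in WT 2 to 96.1 CPM in pgr5 3. DREB2 factors answer to drought and heat in Arabidopsis and rice, and DREB1 factors to cold. DREB 2A-like (LOC117858324) ran from 4.33 to 7.13 CPM. The 3 genes described as DREB 1A-like lie next to each other in RefSeq's order and were near the lower limit of the counts. The first of them (LOC117842434) stood at 1.10, 0.773 and 0.573 CPM under WT, 1.51, 1.40 and 1.92 CPM under ndhO, and 1.92, 0.704 and 0.643 CPM under pgr5. The ndhO libraries lay above the WT libraries for this copy, and for its neighbours (LOC117842784 and LOC117842758) the labels overlapped, with no counts in WT 2 and ndhO 2 for one and in pgr5 3 for the other. DREB 1I-like (LOC117859670) reached at most 1.77 CPM and had no counts in ndhO 1.

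The ABI5-like proteins are basic leucine zipper factors of the type that carries the ABA signal to promoters. The 3 genes described as ABI5-like protein 2 ran from 6.04 to 11.1 CPM (LOC117858095), from 5.87 to 11.2 CPM (LOC117850508) and from 3.10 CPM in pgr5 3 to 10.9 CPM in pgr5 1 (LOC117838227), with overlap between all labels. ABI5-like protein 3 (LOC117842501) stood at 1.10, 1.01 and 0.900 CPM under WT and at 3.22, 1.52 and 1.99 CPM under ndhO, higher without overlap, and at 1.33, 2.11 and 1.05 CPM under pgr5. ABI5-like protein 5 (LOC117842637) lay the other way, at 0.787, 1.16 and 1.39 CPM under WT, 0.617, 0.234 and 0.589 CPM under ndhO, and 0, 1.72 and 0.526 CPM under pgr5. Related factors therefore stood in opposite order between the same labels, at levels of up to 3.22 CPM where counting error is large.

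The widest range of any member above 5 CPM was that of the CORA-like gene (LOC117855491). This gene, named after a glycine-rich protein of alfalfa that appears in cold and drought, stood at 80.99, 233 and 255 CPM under WT, 1219, 604 and 403 CPM under ndhO, and 323, 685 and 70.8 CPM under pgr5. All ndhO libraries lay above all WT libraries, and the pgr5 libraries reached below the lowest WT library and above the middle ndhO library. The mean was 189.6 ± 94.7 CPM under WT, 742 ± 425 CPM under ndhO and 359 ± 309 CPM under pgr5 (SD, n = 3). For ndhO against WT the log2 fold change was 1.97 (SE 0.82), with an unadjusted p of 0.0425 and an adjusted p of 1.00 in edgeR. Its highest library was 17.2 times its lowest, at percentile 99.2 of the 12136 genes with a mean of at least 5 CPM and counts in every library.

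**Figure D3:**
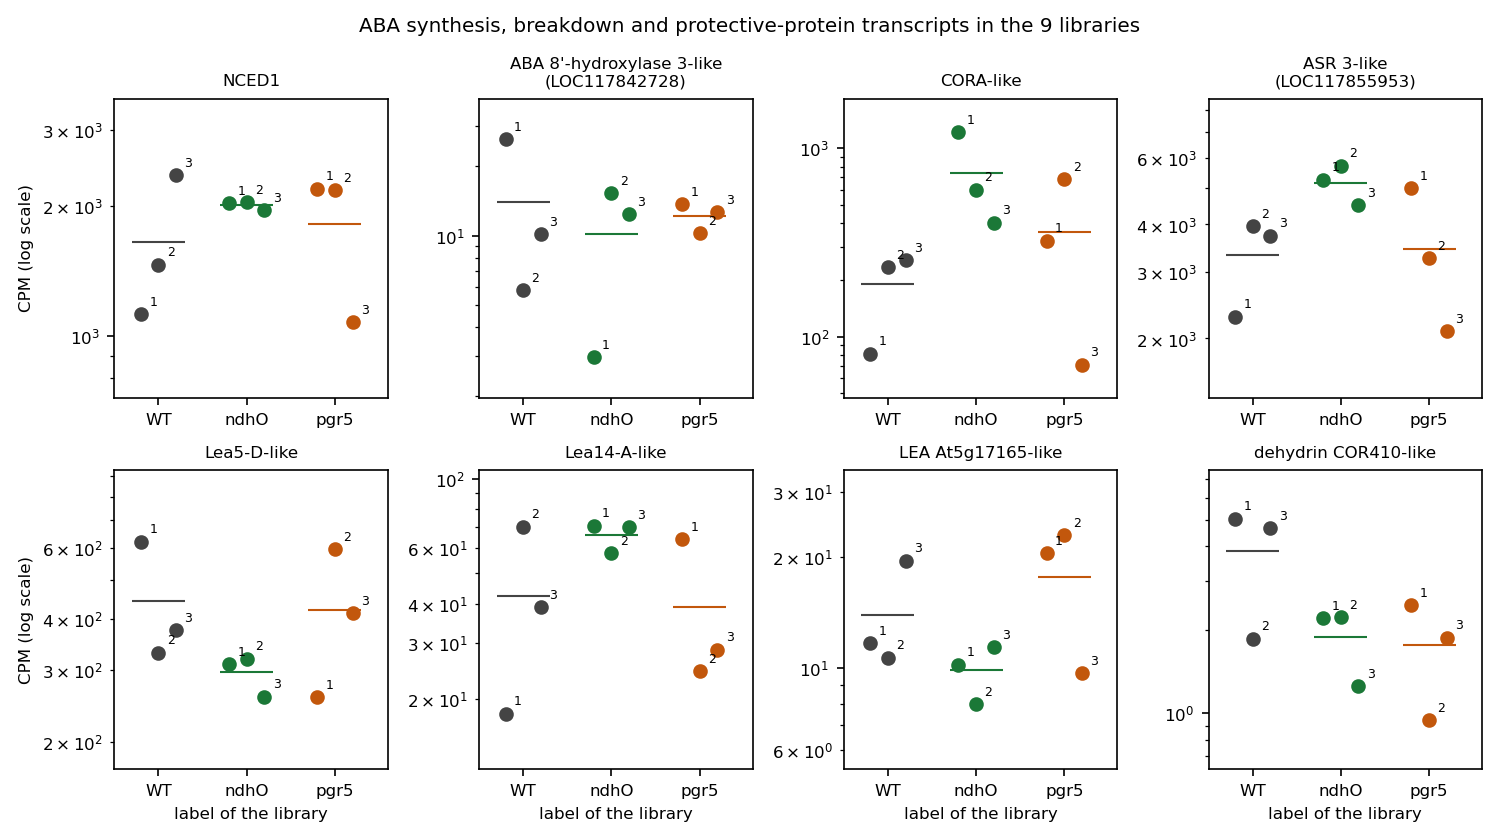
Each panel gives the CPM of 1 gene on a log axis in the 9 libraries, by label, with the replicate number beside each point and a line at the mean of the label. The CORA-like and ASR 3-like transcripts are higher in all 3 ndhO libraries than in all 3 WT libraries, Lea5-D-like is lower, and the other 5 overlap between WT and ndhO.

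ASR proteins, small proteins first described from ripening tomato fruit, included one of the most heavily sequenced members. ASR 3-like (LOC117855953) stood at 2283, 3956 and 3737 CPM under WT, 5254, 5721 and 4489 CPM under ndhO, and 4982, 3262 and 2090.1 CPM under pgr5. The ndhO libraries lay above all WT libraries, and the pgr5 libraries spread from the lowest of the 9 values to above ndhO 3. The mean was 3325 ± 909 CPM under WT, 5155 ± 622 CPM under ndhO and 3445 ± 1455 CPM under pgr5 (SD, n = 3), with an unadjusted p of 0.0824 and an adjusted p of 1.00 in edgeR for ndhO against WT. The other 4 ASR genes overlapped between all labels and were each lowest in pgr5 2. In that library ASR 5-like (LOC117866219) stood at 339 CPM against 546 to 749.9 CPM in the 8 others, and ASR 5-like (LOC117862452) at 358 CPM against 375 to 894 CPM. ASR 3-like (LOC117862704) stood there at 173 CPM against 220.1 to 327 CPM, and ASR 3-like (LOC117857215) at 2.74 CPM against 3.48 to 6.61 CPM. Summed epidermis and cuticle transcripts were also lowest in pgr5 2, at 2762 CPM against 3251 to 5193 CPM in the others, and lignifying vascular tissue transcripts at 43.4 CPM against 64.4 to 155.9 CPM. The genes of these lists did not all follow the sums. A lipid-transfer protein-like gene (LOC117833717) was lowest in pgr5 2, at 677 CPM. GDSL esterase/lipase At1g28580-like (LOC117856746) stood there at 87.3 CPM, against 38.5 CPM in ndhO 1. Cellulose synthase A catalytic subunit 8 was at 13.1 CPM in pgr5 2 and 12.8 CPM in ndhO 1. Laccase-7-like was at 21.4 CPM in pgr5 2 and 13.96 CPM in pgr5 3. The part of these transcripts in the ASR values was not tested.

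The 3 LEA proteins each had a different order of libraries. Lea5-D-like (LOC117855509), named after a cotton protein, stood at 621, 331 and 376 CPM under WT, 310.1, 319.8 and 258 CPM under ndhO, and 257, 595 and 414 CPM under pgr5. It was high in WT 1 and pgr5 2, and the ndhO libraries lay just below WT 2. Lea14-A-like (LOC117846840) had nearly the reverse order, with 17.95, 70.4 and 39.1 CPM under WT, 70.9, 58.1 and 70.2 CPM under ndhO, and 64.2, 24.4 and 28.6 CPM under pgr5. The LEA protein named after Arabidopsis At5g17165 (LOC117862457) stood at 11.7, 10.7 and 19.5 CPM under WT, 10.2, 8.00 and 11.4 CPM under ndhO, and 20.5, 22.9 and 9.70 CPM under pgr5. For pgr5 against ndhO its log2 fold change was 0.84 (SE 0.34; unadjusted p of 0.0336 and adjusted p of 1.00 in edgeR), although pgr5 3 lay inside the ndhO range.

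Of the dehydrins, HIRD11 (LOC117840728), named after an Arabidopsis protein that binds metal ions, was even, at 423, 549 and 617 CPM under WT, 406, 415 and 582 CPM under ndhO, and 589, 381 and 427 CPM under pgr5. COR410-like (LOC117834274), named after a wheat cold-response protein, was near the lower limit of the counts, at 5.04, 1.86 and 4.66 CPM under WT, 2.195, 2.22 and 1.25 CPM under ndhO, and 2.45, 0.939 and 1.87 CPM under pgr5. WT 1 and WT 3 stood above the 7 others. Against WT its log2 fold change under pgr5 was -1.13 (SE 0.53; unadjusted p of 0.0603 and adjusted p of 1.00 in edgeR).

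As a set, mostly of phosphatases 2C, the genes ranged between libraries slightly less than all genes did. Among the 83 members with a mean of at least 5 CPM, the highest library was a median of 1.71 times the lowest, beside 1.81 times over all 12186 genes at that level. More than 2-fold was reached by 30.1% of the members, beside 38.5% of all genes, and by 16.7% of the 54 phosphatases 2C. The other roles differed. Above 2-fold were 2 of 2 genes of ABA synthesis and breakdown, 3 of 3 LEA proteins, 4 of 5 ASR proteins and 2 of 3 receptors. So were the CORA-like gene, 3 of 9 SAPK kinases and 1 of 3 ABI5-like proteins, but 0 of 2 DREB factors and 0 of 1 dehydrin. Only the CORA-like gene, 8'-hydroxylase 3-like and phosphatase 2C 51-like exceeded 4-fold, 3.61% of the members beside 7.75% of all genes. By role the median was 5.55 times over 2 genes of ABA synthesis and breakdown, 2.87 times over 3 LEA proteins, 2.41 times over 5 ASR proteins, 2.15 times over 3 receptors and 1.91 times over 3 ABI5-like proteins. It was 1.64 times over 9 SAPK kinases and 1.49 times over 2 DREB factors, and the dehydrin HIRD11 ranged 1.62-fold. Across the 111 members, Spearman's rho between pairs of libraries was 0.961 to 0.986 within a label and 0.959 to 0.984 between labels, a description over genes that are not independent.

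**Figure D4:**
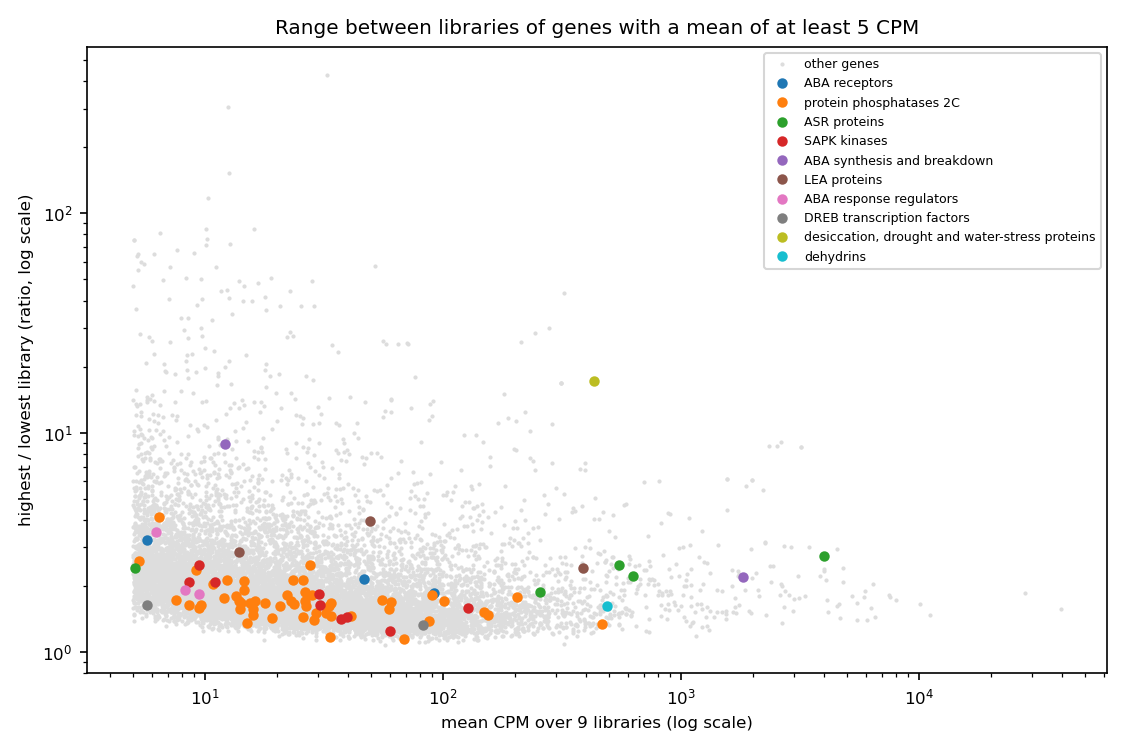
Each point is a gene with a mean of at least 5 CPM and counts in every library; the x axis is its mean CPM over 9 libraries and the y axis its highest library divided by its lowest, both log scales. Coloured points are the members by role; the CORA-like gene at 17.2 and 8'-hydroxylase 3-like at 8.90 stand above the other members, most of which lie below 2.

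By library, WT 3 was the highest of the 9 for 20 of the 83 members (24.1%, beside 16.8% of all genes) and pgr5 3 for 6 (7.23%, beside 18.3%). The lowest value fell in ndhO 1 for 16 members (19.3%, beside 13.2% of all genes) and in pgr5 3 for 16 (19.3%, beside 19.4%). In pgr5 3 these included NCED1, PYL3, PYL5-like, SAPK5, SAPK7-like, phosphatase 2C 5, BIPP2C1, ASR 3-like (LOC117855953) and the CORA-like gene, at a share that is that of all genes. In the same library the summed transcripts of 8 lignifying vascular tissue genes were highest of the 9, at 155.9 CPM. Of this sum, 119 CPM came from 1 gene, cellulose synthase A catalytic subunit 8 (LOC117843626). Laccase-7-like (LOC117858701), of the same list, was at 13.96 CPM there, its lowest of the 9. The part of these transcripts in the values of the members was not tested.

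Around these genes, 55 others of the pathway were listed by words: carotenoid enzymes upstream of ABA, ABA transporters, other basic leucine zipper factors, ion channels of guard cells and osmolyte enzymes. None of the 55 passed in edgeR or limma-voom in any comparison, while an unadjusted p under 0.05 was held by 3 for ndhO against WT (5.45%, beside 2.74% of all genes), by 1 for pgr5 against WT (1.82%, beside 2.06%) and by 1 for pgr5 against ndhO (1.82%, beside 2.67%). Zeaxanthin epoxidase-like (LOC117863401), which makes the epoxycarotenoid upstream of NCED, ran from 1208 to 1801 CPM. ABCG25-like (LOC117839172), whose Arabidopsis relative exports ABA, ran from 36.4 to 52.1 CPM, and the potassium channel KAT1-like (LOC117850637) from 34.1 to 47.4 CPM. Betaine aldehyde dehydrogenase 2 (LOC117861442), an enzyme of osmolyte synthesis, ran from 238 to 430.03 CPM. The list of leucine zipper factors held SABRE (LOC117840780), at 128 to 191 CPM, because its name contains the letters searched for; the other 5 of its 6 genes are leucine zipper factors.

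One pathway gene passed in DESeq2, galactinol-sucrose galactosyltransferase 1 (LOC117860594), an enzyme of the raffinose route that makes protective sugars; it was chosen after its values were seen. It stood at 71.4, 26.6 and 42.6 CPM under WT, 9.67, 10.7 and 11.6 CPM under ndhO, and 11.6, 59.3 and 35.5 CPM under pgr5. The ndhO libraries and pgr5 1 lay below all others. For ndhO against WT edgeR's log2 fold change was -2.14 (SE 0.56), with an adjusted p of 1.00 in edgeR, 0.998 in limma-voom and 0.0316 in DESeq2. Its relatives, also named after their values were seen, differed among themselves. Of the 3 genes described as galactosyltransferase 2, one (LOC117863476) stood at 112, 62.01 and 87.02 CPM under WT and lower, at 48.6, 42.8 and 57.01 CPM, under ndhO. Another (LOC117838470) stood at 43.5, 53.97 and 29.4 CPM under WT and higher, at 66.7, 56.5 and 60.7 CPM, under ndhO. The last (LOC117846586) overlapped between the labels, from 6.26 to 9.98 CPM under WT and from 5.89 to 55.98 CPM under ndhO. None of the 3 passed in edgeR, DESeq2 or limma-voom.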

How the data were processed

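Polyadenylated leaf RNA was sequenced from a stranded kit as paired-end reads, per the labels' protocols. StringTie 2.2.3, limma 3.62.2, edgeR 4.4.1, Trim Galore 0.6.7 and FastQC 0.11.9 were used, per the submitters' processing notes, and the sources used here name no aligner or genome build. The authors deposited 1 table of 17987 genes with raw counts per library, per the file headers, which were used for every test. The deposited table also holds corrected log2 CPM and the authors' log2 fold changes, with the authors' p-values and adjusted p-values and a t and B score. Columns of ndhO and pgr5 carry an extra number that the labels do not explain and were matched by label and last number.

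Tests of the counts used edgeR 4.0.16 in R 4.3.3 with TMM scaling, the default low-count filter, quasi-likelihood tests in 1 fit over 9 libraries, and Benjamini-Hochberg adjustment over all 17970 genes at 0.05. Standard errors of log2 fold changes come from the F statistic, and CPM uses TMM-scaled totals. With 3 against 3 libraries an exact test cannot go below 0.1, so none was used. As alternatives, single libraries were left out, the replicate number was a block, 2 labels were fitted alone, DESeq2 1.42.0 and limma-voom (limma 3.58.1) replaced edgeR, and scaling, filter and threshold were changed. The procedure was tested on simulated data. The labels call the libraries biological replicates without saying that each is a separate plant, so p-values measure the spread between these libraries. Transcript lengths were not used, so levels are not compared between genes. RefSeq identifiers (assembly Setaria_viridis_v4.0) matched all 111 members and 17558 genes, and served only for which genes are neighbours.

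The members, roles and lists were chosen with earlier results of these data known. Genes named are the edited genes, all members of roles with up to 6, in larger roles the 4 with the highest mean CPM and the 2 with the widest range above 5 CPM, the 3 lowest unadjusted p per comparison, members called by any tool or by the authors, and the pathway gene of each list with the highest CPM. Other members are named only as part of a count, and phosphatase 2C 80, the 50-like pair, the galactosyltransferases and SAPK9-like fall outside the rule.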

Additional observations from a re-analysis of the deposited data

Results flagged for a closer look

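The authors' deposited table, whose values were not used in the comparisons above, called 1 of the 111 genes between pgr5 and WT at an adjusted p of 0.05, which is 0.901% beside 2.51% of all genes (451 of 17987). Between ndhO and WT it called 0 of them, the lowest adjusted p being 0.725. The 1 gene was phosphatase 2C 29 (LOC117836822), at a log2 fold change of 4.79 and an adjusted p of 0.0343 in the authors' deposited table. Its deposited counts were 67, 6 and 7 in WT 1, 2 and 3, 13, 12 and 0 in ndhO 1, 2 and 3, and 49, 4 and 42 in pgr5 1, 2 and 3. The highest count was in WT 1, the pgr5 libraries lay on both sides of WT 2 and WT 3, and edgeR on these counts gave an adjusted p of 1.00. The authors' corrected log2 CPM ordered the libraries otherwise. It was -0.415, -3.23 and -2.95 in WT 1, 2 and 3. In pgr5 1, 2 and 3 it was 3.64, 0.735 and 3.55, all above WT 1. The part of the correction in the authors' call was not tested. In the corrected log2 CPM of the authors' deposited table, ndhO 3 equalled the mean of ndhO 1 and ndhO 2 in 111 of the 111 members, within 1e-06. This was counted over the members only, so it cannot be called particular to them. No header says what was corrected. Groups of 3 libraries are too small for a search for outlying samples.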

How the results depend on the processing

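Over all genes, DESeq2 called 16 for ndhO against WT, 6 for pgr5 against WT and 12 for pgr5 against ndhO where edgeR called 0, and 1 pathway gene for ndhO against WT where edgeR called 0; the cause was not tested. The other 131 counts of calls over members, pathway genes and all genes under these alternatives were 0, and leaving out one library gave 0 to 0 for every count. Members at an unadjusted p under 0.05, a count added after seeing the data, ran from 2 to 7 for ndhO against WT when single libraries were left out, with 2 without WT 1, WT 3 or ndhO 2 in place of 5. They ran from 0 to 3 for pgr5 against WT in place of 1, with 0 without pgr5 2, 2 without WT 1 or WT 2, and 3 without pgr5 1 or pgr5 3. They ran from 3 to 8 for pgr5 against ndhO in place of 6, with 3 without ndhO 2. The fold changes of single members given above kept their sign in all 14 alternatives each; that of galactosyltransferase 1 was not run under them. With the replicate number as a replicate block, 0 members were called in each comparison, and 2, 0 and 5 had an unadjusted p under 0.05. The numbers did not pair the libraries: deviations of same-numbered libraries correlated at -0.52 to 0.10 over 9 pairs and those of other numbers at -0.25 to 0.46 over 18. Members below about 2 CPM, such as PYL9 and the DREB 1A-like genes, rest on few counts, and other scalings moved the median of all genes by less than 0.1 on the log2 scale.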

Other observations

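Some members ordered the 9 libraries alike. They were chosen after the values were seen and carry no test. The share of members, or of all genes, with such orders was not counted. The orders below therefore cannot be set against those of other genes. NdhO was lowest in pgr5 2, WT 1 and pgr5 3, and the same libraries were the highest for Lea5-D-like (LOC117855509), at 595, 621 and 414 CPM, and the lowest for Lea14-A-like (LOC117846840), at 24.4, 17.95 and 28.6 CPM. Of the 9 libraries, pgr5 3 and WT 1 were the lowest for both NCED1 (LOC117834674), at 1077 and 1124 CPM, and the CORA-like gene (LOC117855491), at 70.8 and 80.99 CPM. ASR 3-like (LOC117855953) was above 4000 CPM in ndhO 1, 2 and 3 and pgr5 1, at 5254, 5721, 4489 and 4982 CPM.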
